A study of Mus musculus with 24 samples.

Results

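The deposited maps of H3K27ac, the acetylation of histone H3 at lysine 27, were compared between Dnmt3a knockout (KO) and wild-type (WT) mouse lung endothelial cells. The members are all peaks of the WT list and the KO list of this mark: 81112 and 44484, which is 125596 of the 313065 peaks in the 8 lists of the series. The series profiled 4 histone marks by ACT-seq, in which a transposase loaded with an antibody cuts and tags DNA next to the marked histone, with yeast nuclei added as a spike-in. The cells were obtained by flow cytometry sorting of KO and WT lungs, and each mark and genotype has 3 samples, so that 6 of the 24 samples are H3K27ac libraries. The labels give the genotypes as ko and wt and nothing further: no source used here gives the allele, any Cre driver, the age of the mice or any pooling of animals. Each genotype has 1 list of peaks, with a chromosome, a first base, a last base and a width, on chromosomes 1 to 19. The spread between samples and the sequencing depth are therefore unknown, and no difference between the genotypes could be tested. The exact binomial (Clopper-Pearson) intervals given below, at 95%, cover counting error over peaks or genes only, and neighbouring peaks are not independent. The lists come from whole sorted populations, in which fewer cells with a mark and less of the mark in each cell cannot be told apart.

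H3K27ac lies on the nucleosomes beside active promoters and active enhancers, where it is written by the acetyltransferases EP300 and CREBBP and removed by histone deacetylases. H3K4me1 marks enhancers whether active or only primed, H3K4me3 marks promoters, and H3K27me3 is the mark of Polycomb repression. DNMT3A is a de novo DNA methyltransferase that methylates cytosine in CG dinucleotides, and the CG-dense islands at many mammalian promoters are normally free of that methylation.

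Dnmt3a itself does not check the labels, since a peak list does not show a deletion. Over the gene and 5000 bp on each side (on chromosome 12, gene body from 3801559) the WT list held 19 peaks and the KO list 11, of which 10 WT peaks were shared, 9 were WT-only and 1 KO peak was KO-only. The widest peak at a listed start measured 1517 bp in WT and 1194 bp in KO. Acetylation at a Dnmt3a start was thus listed in both genotypes.

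Because DNMT3A acts on CG dinucleotides, the sequences around 6 gene starts are shown first, with every CG in capitals. They run from 250 bases before to 50 bases after a start, 5′ to 3′ on the strand of the gene, and come from RefSeq on GRCm38.p6 (mm10). The first pair has the widest WT-only peaks among listed starts with H3K27ac in WT alone. They are Baz2a (chr10:128092533-128092832, plus strand), a subunit of a nucleolar chromatin remodelling complex, with a WT peak of 1284 bp, and Traf4 (chr11:78165501-78165800, minus strand), a signalling adaptor, with a WT peak of 1252 bp. The next pair has the widest KO-only peaks on the same terms. They are Fuz (chr7:44895829-44896128, plus strand), a planar polarity and cilium gene, with a KO peak of 717 bp, and Mcrip1 (chr11:120549673-120549972, minus strand), which encodes a corepressor-binding protein, with a KO peak of 716 bp. The last pair is from the pan-endothelial list and was acetylated in both. Flt1 (chr5:147725962-147726261, minus strand), a VEGF receptor, had peaks of 1553 bp in WT and 1281 bp in KO, and Clec14a (chr12:58269209-58269508, minus strand), an endothelial surface lectin, had 1240 bp and 1300 bp. These 300-base windows hold 30 CG in Baz2a and 33 in Traf4, 7 in Fuz and 44 in Mcrip1, and 29 in Flt1 and 5 in Clec14a. CG content thus differed widely within the KO-only and the endothelial pair.
Baz2a: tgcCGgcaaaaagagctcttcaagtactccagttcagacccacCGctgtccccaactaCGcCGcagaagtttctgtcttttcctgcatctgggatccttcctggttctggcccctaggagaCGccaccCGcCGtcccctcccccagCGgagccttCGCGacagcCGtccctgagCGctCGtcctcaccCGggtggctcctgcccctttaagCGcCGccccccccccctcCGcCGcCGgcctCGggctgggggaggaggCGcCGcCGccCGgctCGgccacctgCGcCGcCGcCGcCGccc
Traf4: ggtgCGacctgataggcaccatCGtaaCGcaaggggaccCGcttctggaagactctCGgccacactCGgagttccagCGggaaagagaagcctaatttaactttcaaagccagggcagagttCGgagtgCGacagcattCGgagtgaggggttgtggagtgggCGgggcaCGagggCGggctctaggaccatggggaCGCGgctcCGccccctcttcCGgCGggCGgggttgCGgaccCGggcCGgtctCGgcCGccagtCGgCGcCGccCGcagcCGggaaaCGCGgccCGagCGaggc
Fuz: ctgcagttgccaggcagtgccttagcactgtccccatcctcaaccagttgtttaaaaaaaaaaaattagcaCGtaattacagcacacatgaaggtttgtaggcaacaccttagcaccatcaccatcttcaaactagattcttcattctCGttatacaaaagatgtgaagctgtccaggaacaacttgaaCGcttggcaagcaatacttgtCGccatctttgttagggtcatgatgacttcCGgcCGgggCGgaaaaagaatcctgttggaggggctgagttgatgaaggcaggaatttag
Mcrip1: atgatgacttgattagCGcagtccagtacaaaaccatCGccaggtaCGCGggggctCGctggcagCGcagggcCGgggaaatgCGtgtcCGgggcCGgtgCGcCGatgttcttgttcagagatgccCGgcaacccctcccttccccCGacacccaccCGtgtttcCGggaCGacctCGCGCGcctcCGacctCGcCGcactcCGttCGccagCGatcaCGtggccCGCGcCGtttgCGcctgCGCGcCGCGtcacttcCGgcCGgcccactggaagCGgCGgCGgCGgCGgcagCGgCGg
Flt1: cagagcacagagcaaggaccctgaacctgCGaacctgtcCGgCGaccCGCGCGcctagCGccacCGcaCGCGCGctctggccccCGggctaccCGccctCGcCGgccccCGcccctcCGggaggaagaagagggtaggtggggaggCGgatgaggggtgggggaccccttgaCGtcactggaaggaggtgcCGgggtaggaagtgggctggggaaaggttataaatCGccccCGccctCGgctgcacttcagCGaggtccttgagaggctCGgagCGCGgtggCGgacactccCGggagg
Clec14a: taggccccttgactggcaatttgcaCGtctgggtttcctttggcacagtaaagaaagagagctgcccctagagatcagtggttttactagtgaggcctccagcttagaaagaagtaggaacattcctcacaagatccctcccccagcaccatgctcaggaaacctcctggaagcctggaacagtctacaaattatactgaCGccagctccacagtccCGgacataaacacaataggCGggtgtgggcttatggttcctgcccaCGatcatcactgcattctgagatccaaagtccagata

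The KO list held 0.548 times as many H3K27ac peaks as the WT list, and the difference lay almost wholly in narrow peaks. Under 150 bp, WT had 22979 peaks and KO 4912, a ratio of 0.214. The ratio was 0.374 at 150 to 199 bp, 0.571 at 200 to 299 bp, 0.842 at 300 to 499 bp and 0.956 at 500 to 999 bp. It was 0.761 at 1000 bp and above, where WT had 3613 peaks and KO 2748. Covered length differed less than number, with 27.6 Mb in WT and 20.2 Mb in KO, a ratio of 0.733. The median width was 215 bp in WT and 363 bp in KO, and the narrowest peak was 95 bp in WT and 106 bp in KO.

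A peak was called shared where it overlapped a peak of the other list by at least 1 bp. By this rule the WT list had 30018 shared peaks, or 37.0% (interval 36.7 to 37.3), and the KO list 30014, or 67.5% (67.0 to 67.9). The remaining 51094 peaks were WT-only and 14470 KO-only. Shared peaks were wide, with a median of 548 bp in the WT list, against 164 bp for WT-only and 204 bp for KO-only peaks. WT-only peaks were 63.0% of the WT list by number and covered 9.82 of its 27.6 Mb, while KO-only peaks covered 3.38 Mb. The KO-only set exceeded the WT-only set in no width class: their ratio was 0.164 under 150 bp and 0.596 at 500 to 999 bp.

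**Figure D1:**
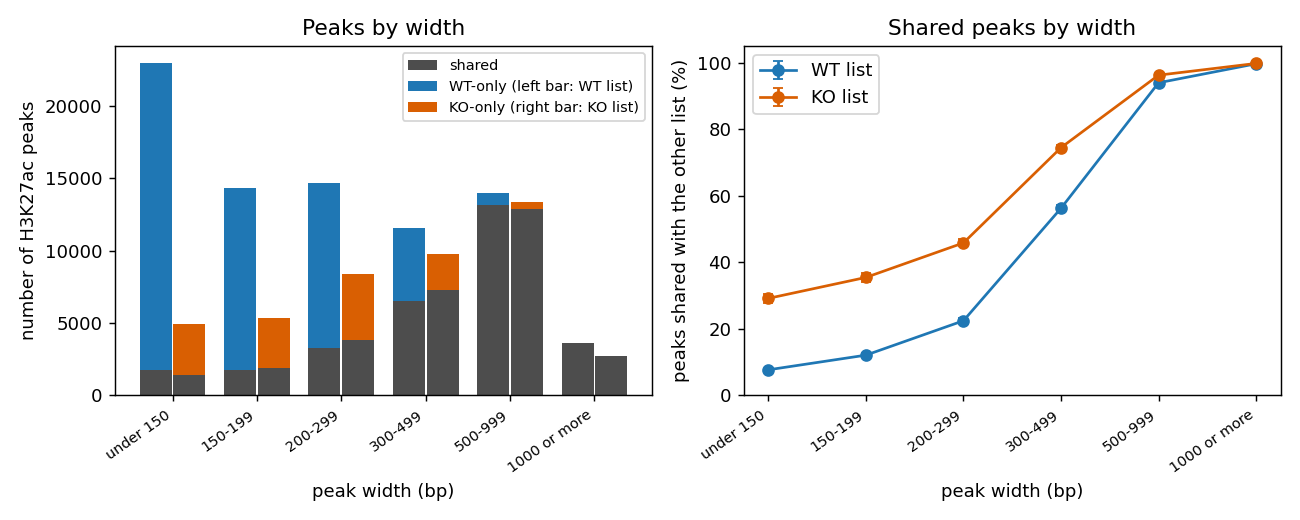
Left, numbers of H3K27ac peaks by width in bp, with the WT list as the left bar and the KO list as the right bar of each pair, split into shared peaks (grey) and peaks in 1 list only (blue, orange). Right, the percent of each list that overlapped the other, with 95% exact binomial intervals; it climbs from 7.69% (WT) and 29.2% (KO) under 150 bp to 99.6% and 99.7% at 1000 bp and above.

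Among peaks of at least 500 bp the lists were close to each other. WT had 17579 and KO 16103, a ratio of 0.916. Set against all peaks of the other list, 95.1% of these WT peaks (94.8 to 95.4) and 96.8% of these KO peaks (96.5 to 97.1) were shared, which left 861 WT-only and 512 KO-only peaks. When both peaks had to reach 500 bp, 72.9% of WT and 79.7% of KO peaks were shared, so many wide peaks met only a narrower peak of the other list. Next to the limit of 500 bp, 78.3% of the 902 WT peaks of 480 to 499 bp and 84.8% of the 854 of 500 to 519 bp were shared, and in KO 88.6% of 849 and 89.9% of 804, given without a test.

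Where 1 WT peak met 1 KO peak, their widths could be set side by side. Over 27829 such pairs the median KO over WT width was 0.953, and KO was the narrower in 56.1%. At gene starts (8849 pairs within 1000 bp) the median ratio was 0.924, from medians of 751 bp in WT and 683 bp in KO, and 62.5% were narrower in KO. Away from starts (18980 pairs) it was 0.973, with 53.1% narrower in KO. A KO peak at least 2-fold wider than its WT partner was seen in 2020 pairs and one at least 2-fold narrower in 2354, so large differences in width ran both ways. The genome-wide shift in width was small beside the range between pairs, whose middle 80% ran from 0.534 to 1.75.

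The other marks were set against the 3 classes of H3K27ac peak. Shared peaks lay in marked chromatin: in the WT list 86.3% overlapped H3K4me1 of WT, 36.2% H3K4me3 and 25.8% H3K27me3, and 5.12% overlapped none of the 6 lists of other marks. Of the WT-only peaks 82.3% (82.0 to 82.7) overlapped none of the 6, and of the KO-only peaks 59.04% (58.2 to 59.8). Overlap with H3K4me1 of the same genotype was 10.5% for WT-only and 30.4% for KO-only peaks. Since KO-only peaks were the wider, the shares were also taken at like width. At 150 to 199 bp, 7.74% of 12582 WT-only and 26.4% of 3451 KO-only peaks overlapped their own H3K4me1, and 85.8% and 62.9% overlapped no other mark. In every width class up to 999 bp the KO-only share on H3K4me1 was above the WT-only share and the intervals did not meet. KO-only peaks were also on H3K4me1 of the WT list about as often, 28.0%, as on that of KO.

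**Figure D2:**
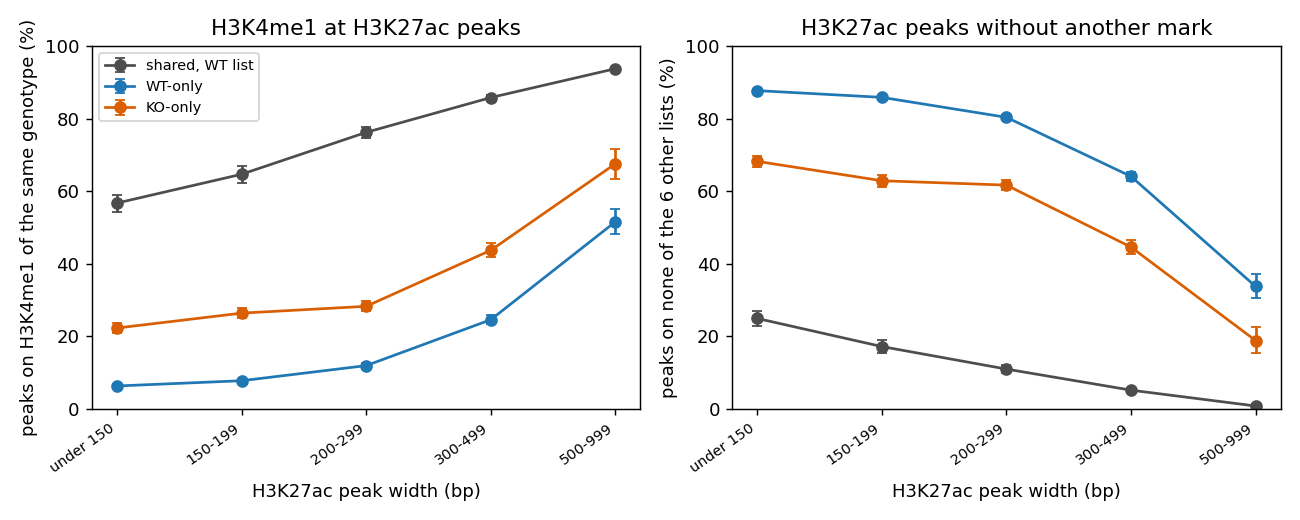
H3K27ac peaks by width in bp, for shared peaks of the WT list (grey), WT-only peaks (blue) and KO-only peaks (orange), with 95% exact binomial intervals. Left, the percent that overlap H3K4me1 of the same genotype; right, the percent that overlap none of the 6 lists of other marks. At each width the KO-only points lie between the shared and the WT-only points.

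Wide peaks in 1 list only lay more often on other marks. At 500 bp and above, 51.6% of the 861 WT-only and 67.6% of the 512 KO-only peaks lay on H3K4me1 of their genotype. The widest WT-only peak, 1341 bp at chr2:130178553-130179893, lay at an annotated end of Snrpb, which encodes a core protein of the splicing machinery. It overlapped H3K4me3 of both genotypes and H3K27me3 of KO alone. The next were those at Baz2a and Traf4 shown above, which overlapped H3K4me3 of both genotypes too. The one at Traf4 also overlapped H3K4me1 of KO alone. The widest KO-only peak, 1183 bp at chr2:57223166-57224348, lay between genes, 2.80 kb from the nearest start, on H3K4me3 of KO alone. The second, 1163 bp in Pam, which encodes a peptide-amidating enzyme, lay 51.2 kb from a start on H3K4me1 and H3K4me3 of KO. The third, 1100 bp, lay 0.488 kb from the start of Cpd, a carboxypeptidase gene with peaks of both lists at its start.

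Every one of the 19 chromosomes had fewer KO than WT peaks. The KO over WT ratio ran from 0.501 on chromosome 14 to 0.616 on chromosome 11, with a median of 0.546, and at 500 bp and above from 0.867 (chromosome 17) to 0.976 (chromosome 18). When each list was cut to the same number of widest peaks, which sets the totals equal, 11 of the 19 had fewer KO peaks. Across the 19 chromosomes the ratio over all peaks went with the number of protein-coding genes per Mb (Pearson r 0.859, Spearman rank correlation 0.835), a description over chromosomes that share the same libraries. At 500 bp and above the corresponding r was -0.22. The gene-rich chromosomes 7, 11, 17 and 19 had the highest shares of shared WT peaks, 42.2% to 45.0%, and chromosome 3 the lowest, 31.2%.

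The same order appeared within chromosomes. In the 270 bins of 1 Mb in which no gene was centred, WT had 16.0 and KO 5.87 peaks per bin, a ratio of 0.367, and 83.8% of the WT peaks there were WT-only. In the 267 bins with 20 or more genes the values were 38.8 and 27.2, a ratio of 0.701, and 43.5% of WT peaks were WT-only. Peaks of 500 bp and above showed no such order, with ratios of 0.918 in the empty bins and 0.894 in the gene-dense bins. Of 2412 bins 2331 had fewer KO than WT peaks and 21 had more, the latter by 1 or 2 peaks in each of the 10 with the most WT peaks. WT-only and KO-only peaks gathered in the same bins: their numbers per bin had a Pearson r of 0.796 over the 2412 bins, which share both libraries, against 0.497 for WT-only and shared peaks.

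**Figure D3:**
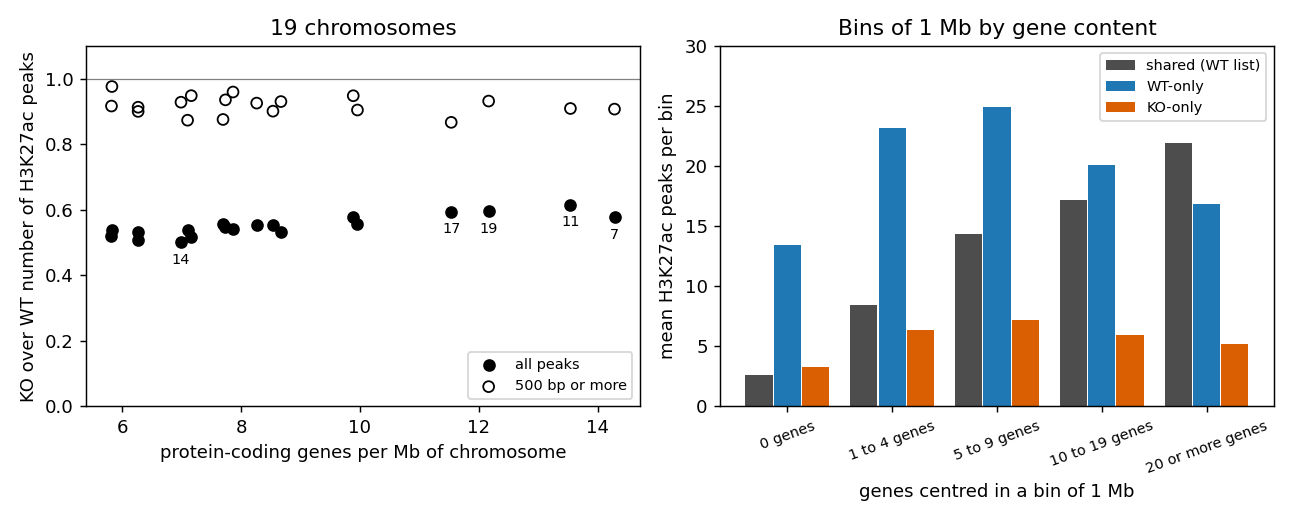
Left, the KO over WT number of H3K27ac peaks on each of 19 chromosomes against protein-coding genes per Mb, for all peaks (filled) and peaks of 500 bp or more (open); some chromosomes are numbered and the line marks equal numbers. Right, mean peaks per bin of 1 Mb by the number of genes centred in the bin: shared peaks go from 2.60 to 21.9 per bin, while WT-only peaks stay between 13.4 and 24.9 and KO-only peaks between 3.26 and 7.17.

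As a class, bins without genes were the poorest in peaks of 1 list. The 270 bins in which no gene was centred held 13.4 WT-only and 3.26 KO-only peaks on average, the lowest of the gene classes. The 10 single bins with the most WT-only peaks nonetheless had few genes. They held 72 to 86 WT-only peaks, against a mean of 21.2, and 0 to 3 genes each. They also held 9 to 35 KO-only peaks, against a mean of 5.999, so these regions were rich in peaks of 1 list in both genotypes. The highest, on chromosome 3 from 21000001 to 22000000, had 108 WT and 58 KO peaks, of which 22 WT peaks were shared, and only 9 and 7 reached 500 bp.

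Shared peaks lay near gene starts and peaks in 1 list lay far from them. Within 1000 bp of a start of a protein-coding gene were 31.9% of shared WT-list peaks (31.4 to 32.5), 4.04% of WT-only peaks (3.87 to 4.21) and 5.67% of KO-only peaks (5.30 to 6.06). Median distances to a start were 14.2 kb, 53.1 kb and 45.3 kb, and 16.7%, 35.2% and 32.0% of the peaks lay over 100 kb away. Wide peaks were nearer: at 500 bp and above the shares within 1000 bp were 44.1% of shared, 15.7% (13.3 to 18.3) of WT-only and 10.4% (7.85 to 13.3) of KO-only peaks. The order of the 2 genotype-only classes is thus opposite in wide peaks, although there the intervals touch. Between genes lay 31.3% of shared, 49.1% of WT-only and 46.0% of KO-only peaks.

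Peaks in 1 list were not, for the most part, the edges of shared regions. Within 5000 bp of a shared peak were 19.04% of WT-only (18.7 to 19.4) and 25.7% of KO-only peaks (25.03 to 26.5), and the median gap to a shared peak was 18.4 kb and 13.1 kb. A shared peak had another shared peak within 5000 bp in 34.4% of cases in the WT list and 34.3% in the KO list. Over 50 kb from every shared peak were 26.2% of WT-only and 18.6% of KO-only peaks.

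Stitching peaks over gaps of up to 12.5 kb gave 16414 clusters of at least 2 peaks in WT and 9394 in KO, a ratio of 0.572. When each list was cut to the same number of widest peaks, which sets the peak totals equal, the ratio was 1.00. The difference was greatest in large clusters, with 788 of 10 or more peaks in WT and 170 in KO, and 98.9% of the former and all of the latter held a shared peak. Of the peaks in these large clusters 47.1% were shared in WT and 74.1% in KO. The 5 clusters covering the most sequence in each list are described next.

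The WT cluster with the longest covered length lay at Tmem100, a gene of BMP signalling in endothelium, on chromosome 11 from 89977773 to 90170238. It had 38 WT and 26 KO peaks, of which 23 in each list were shared, and 14 and 13 reached 500 bp. A cluster over Notch1, the Notch receptor, and Egfl7, a secreted endothelial factor, held 33 WT and 25 KO peaks (21 shared in each list) and was among the 5 leaders of both lists. Tcf4, which encodes a bHLH factor, was too, with 37 WT and 27 KO peaks in the WT cluster. Of these 7 and 10 reached 500 bp, and it was the only WT leader with more KO than WT peaks of that width. The other WT leaders lay at Synpo and Ndst1, an actin-binding protein and a heparan sulfate enzyme, with 40 WT and 25 KO peaks, and at Denn2b with 24 and 18. The other KO leaders lay at Rcsd1 and Mpzl1 (26 KO and 23 WT peaks), at Gnai2 and the hyaluronidase genes Hyal1 to Hyal3 (18 and 19), and at Mfng, a modifier of Notch receptors, with Card10 (17 and 15). In all 5 WT leaders KO peaks covered less sequence than WT peaks, for example 13.6 against 16.3 kb at Tmem100. In 3 of the 5 KO leaders, at Rcsd1, Tcf4 and Mfng, KO covered more. The leading clusters of each list were chosen for their length in that list.

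Genes with the most shared peaks were large genes. Over the gene body and 5000 bp on each side, Arhgap26, a gene of a GTPase-activating protein, had 54 shared peaks in 785 kb, from 96 WT and 69 KO peaks. Prkce, a protein kinase C, had 32, Frmd4a, a scaffold gene, 30, Tcf4 30, Maml2, a Notch coactivator, 27, and Foxp1, a forkhead factor, 26. Arhgap26 held 6.88 shared peaks per 100 kb and Tcf4 8.46, against 1.24 over the genome. At 500 bp and above Arhgap26 (30), Prkce (17) and Frmd4a (16) led again, followed by Bach2 with 15 and Nckap5 with 14. By density among genes with at least 5 such wide peaks, Tal1, the blood and endothelial bHLH factor, came first with 5 in 25.3 kb, then Acvrl1, the endothelial BMP9 receptor ALK1, with 5 in 26.8 kb. Ehd2, a caveolar ATPase, B4galt4 and Pdgfb, the platelet-derived growth factor of endothelium, followed. With all widths Cd151, Prdx2, Crip2, Cracr2b and Gimap6 were densest, with 5 shared peaks each in windows of 14.1 to 16.7 kb.

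WT-only peaks were most numerous over very long genes. Ptprd, a receptor phosphatase of synapses, had 93 WT-only peaks, Macrod2 76, Immp2l 61, Nell1 59, Ccser1 57 and Auts2 49. Their shared peaks numbered 12 to 17 each and their WT peaks of 500 bp or more 3 to 9. Ptprd and Macrod2 also led the KO-only counts, with 24 and 21, so that these 2 loci were rich in peaks of 1 list in both genotypes. Ptprd had 4.08 WT-only peaks per 100 kb against 2.12 over the genome, and 1.05 KO-only peaks against 0.600. St6galnac3, a sialyltransferase (20 KO-only), Sema6d, a semaphorin (17), Zfhx3 (16) and Aopep (16) came next for KO-only peaks, and each of the 4 had more WT-only than KO-only peaks, at Aopep 18 against 16. Gene length went with the share of unshared peaks: WT-only peaks were 35.8% of the WT peaks in genes under 20 kb and 76.3% in the 215 genes of 500 kb or more, and KO-only peaks 14.4% and 46.2% of the KO peaks.

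By density, WT-only peaks led at smaller genes. Tubb5, a tubulin, had 5 WT-only peaks of 6 WT peaks, Icam2, an endothelial adhesion molecule, 5 of 8, Btla, an inhibitory receptor of lymphocytes, 8 of 9, Nr2f2, the COUP-TFII factor of venous endothelium, 5 of 6, and Thbs1, the angiogenesis inhibitor thrombospondin-1, 5 of 5. The KO list had 1 to 3 peaks at each. At Icam2 3 WT peaks were shared, and 2 KO but 0 WT peaks reached 500 bp. Nr2f2 had 1 such WT and 0 such KO peaks, and Tubb5, Btla and Thbs1 had equal numbers. KO-only peaks were densest at Gja5, the arterial connexin 40, with 5 of 6 KO peaks against 3 WT peaks. Bdkrb2, the bradykinin B2 receptor, had 6 of 7, Thsd1, an endothelial thrombospondin-domain gene, 6 of 11, D16Ertd472e 5 of 6 and Reep3 10 of 18. At these 5 genes WT had 3 to 13 peaks, so the KO counts were higher by 1 to 5. Reep3 had the largest excess of KO peaks among the genes ranked, 18 against 13, and several genes tied at an excess of 4, among them Creb3l2 with 15 against 11 and Mxra7 with 8 against 4. At 500 bp and above, no ranked gene held more than 4 WT-only peaks (Nell1, Nkain2 and Phlpp1) or 3 KO-only peaks (Tcf4 and Syne1).

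Over all genes, 14639 of 20661 had a peak of either list in this window. More WT than KO peaks were counted at 8289 (56.6%) and more KO than WT at 1395 (9.53%). Among the 2153 genes with 10 or more peaks in both lists together, 1845 had more WT and 117 more KO peaks. With peaks of 500 bp and above the balance was nearer to even. Of 10949 genes with such a peak, 2704 had more WT and 1539 more KO peaks, and of 310 genes with 10 or more such peaks, 121 had more WT, 108 more KO and 81 equal numbers. When each list was cut to the same number of widest peaks, 3358 genes had more WT and 3717 more KO peaks, so the direction over genes was not the same in the full and the cut lists.

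At gene starts most acetylation was common to both lists. A peak within 1000 bp of a start was found in both lists at 9703 genes (47.0% of all protein-coding genes), in WT alone at 1052 (5.09%), in KO alone at 363 (1.76%) and in neither at 9543 (46.2%). Of the 11118 genes with acetylation in either list, 87.3% had it in both, 9.46% had it in WT only and 3.26% in KO only. When the lists were cut to the same number, which sets the peak totals equal, 581 genes had it in WT only and 580 in KO only. The widest WT-only peaks at starts were those of Snrpb, Baz2a and Traf4, then Cyp4a32, a cytochrome P450 gene, with 1141 bp, and Adamdec1, a metalloprotease gene, with 1098 bp. Those at Cyp4a32 and Adamdec1 overlapped H3K4me3 of neither genotype. The widest KO-only peaks at starts were mostly at genes with peaks of both lists at the start, namely Cpd (1100 bp), Hmcn1 (993 bp), Syncrip (823 bp) and Cst3 (804 bp), while Tmem38b, a cation channel gene, had its 849 bp in KO only. Snrpb and Tmem38b exceeded the widest listed starts shown above, so they count by an annotated end. Such an end can be the far end of the gene.

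The endothelial label was checked against marker genes. For genes without a listed start a peak counted at either annotated end, and the gene table gives no strand, so such a peak can lie at the far end of the gene; those named below are marked as such. All 20 pan-endothelial genes had acetylation at the start in at least 1 list, 19 of them in both, against 47.0% of all genes, and so had 10 of the 10 with a listed start. Among them Pecam1 (annotated ends) had 538 bp in WT and 651 bp in KO, Cdh5 (annotated ends), the VE-cadherin gene, 662 and 672 bp, Tek, the TIE2 receptor, 771 and 837 bp, and Emcn, a sialomucin, 1124 and 1272 bp. Kdr, the main VEGF receptor, had 777 bp in WT and 452 bp in KO, and Ramp2 (annotated ends), the adrenomedullin coreceptor, 1191 and 715 bp. Icam2 (annotated ends) had 214 bp in WT and none in KO, although 2 KO and 0 WT peaks over its window reached 500 bp. The 20 genes had 173 WT and 115 KO peaks in all, with 98 WT peaks shared, but 44 and 44 peaks of 500 bp or more.

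Genes of the other lung cell types were mostly without the mark. Of the leukocyte list 1 of 18 genes was counted in both (Spi1) and 1 in WT only (Cd74, a peak of 103 bp), each by an annotated end, none of the 12 with a listed start was acetylated, and Ptprc, Cd3e and Csf1r had none at the start. Of the mural list 2 of 16 were counted in both (Trpc6 and, by an annotated end, Myh11) and 2 in WT only (Rgs5 with 192 bp and, by an annotated end, Myocd with 173 bp), while Pdgfrb, Cspg4 and Acta2 had none. Of the fibroblast list 2 of 16 were in both (Meox2 and, by an annotated end, Fn1) and 2 in WT only (Wnt2 with 675 bp and Fgf10 with 606 bp), while Col1a1, Col1a2, Pdgfra, Dcn and Tcf21 had none. Of the epithelial list 4 of 18 were in both (Sftpb, Hopx and, by an annotated end, Sftpc and Scgb1a1) and Foxj1 had 184 bp at an annotated end in KO only, while Epcam, Cdh1 and Nkx2-1 had none. Summed over each list, WT and KO had 14 and 5 peaks at leukocyte, 24 and 10 at mural, 26 and 11 at fibroblast and 22 and 17 at epithelial genes, beside 56262 and 35324 summed over all genes. The part of other cell types in the difference between the lists was not tested.

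**Figure D4:**
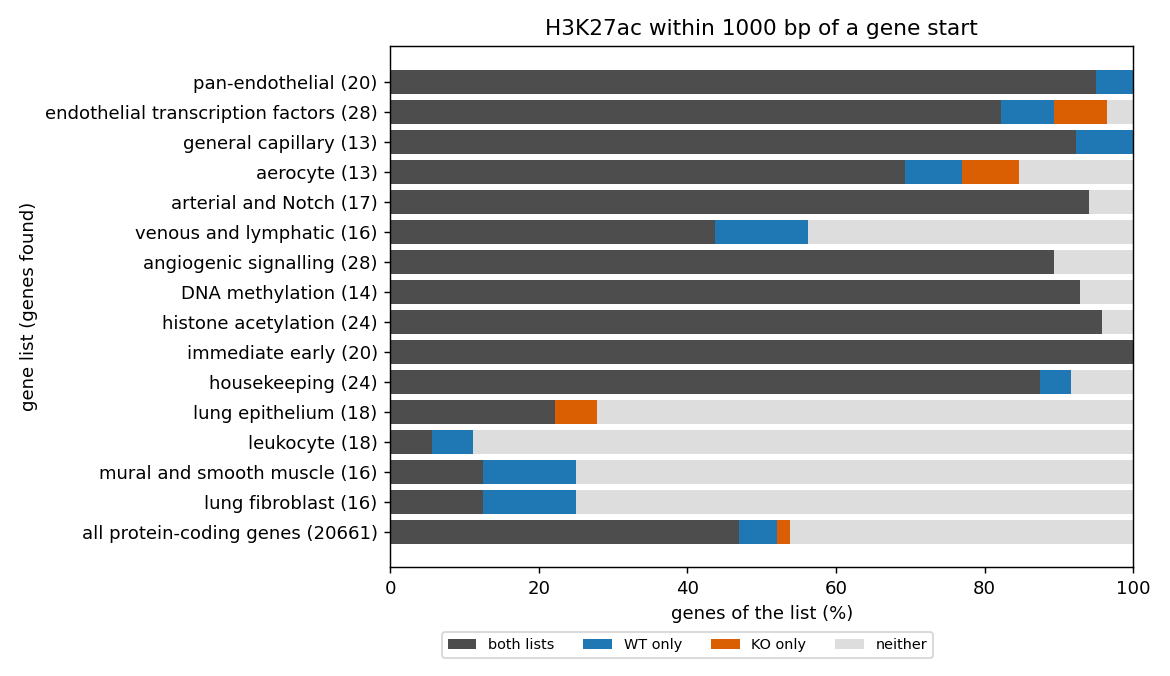
For 15 gene lists and all protein-coding genes, the percent of genes with H3K27ac within 1000 bp of a start in both lists (dark grey), WT only (blue), KO only (orange) and neither (light grey); the number of genes found is in brackets. Both-list acetylation reaches 19 of 20 pan-endothelial genes and 1 of 18 leukocyte genes, beside 47.0% of all genes.

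Endothelial transcription factors were acetylated in both lists at 23 of 28 genes, with 2 in WT alone and 2 in KO alone. Each of these is 7.41% of the marked genes of the list, beside 9.46% and 3.26% over all marked genes. Erg, the ETS factor of endothelial identity, had 976 bp in WT and 834 bp in KO at the start, Sox17 (annotated ends) 1501 and 1417 bp, Tal1 1051 and 1153 bp, and Klf2, the flow-responsive factor, 1050 and 806 bp. Foxf1 (annotated ends), a forkhead factor of lung vessels, had 972 bp in WT and 218 bp in KO, and Mef2c had 872 bp in WT and 2049 bp in KO, where the KO peak spans 2 WT peaks. Those 2 genes show that width at single starts differed in both directions. Fli1 (335 bp) and Meis2 (309 bp) were acetylated at the start in WT only, and Ets1 (163 bp) and Lmo2 (193 bp) in KO only, all with narrow peaks. Fli1, Ets1 and Lmo2, like Icam2, have no listed start, so their annotated ends were used and the start that the cells use may lie elsewhere: Ets1 had 15 peaks in each list over its window. Nr2f2 had no peak at its start in either list.

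Capillary, arterial and venous genes were next, to be read beside the 9.46% of all marked genes in WT only and 3.26% in KO only. Of 13 general capillary genes 12 were in both, and Cxcl12, the chemokine, had 403 bp in WT only. Of 13 aerocyte genes, which mark the large gas-exchange capillary cell, 9 were in both. Prx, encoding periaxin, had 604 bp in WT only and Car4, a carbonic anhydrase, 295 bp in KO only. Of 17 arterial and Notch genes 16 were in both, among them Gja4 (977 bp in WT, 684 bp in KO) and Dll4 (850 and 757 bp). Jag1 had 1459 and 931 bp in peaks 1027 bp apart, and each of these peaks overlapped another peak of the other list. Efnb2, the arterial ephrin, was wider in KO, with 835 bp in WT and 1198 bp in KO, where the KO peak spans 2 WT peaks. Of 16 venous and lymphatic genes 7 were in both, 2 in WT only (Slc6a2 with 194 bp and Car8 with 286 bp, both by an annotated end) and 7 in neither. Selp, Vcam1, Ackr1 and Pdpn were among those without it.

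Angiogenic signalling genes had acetylation at the start in both lists at 25 of 28 genes, beside 47.0% of all genes, and in 1 list at none. All 25 marked genes were thus in both lists, beside 87.3% over all marked genes. The ligand Vegfa had 851 bp in WT and 192 bp in KO, and Vegfc 1634 and 1658 bp. Among receptors Flt4, the VEGF-C receptor, had 1474 bp in WT and 409 bp in KO, where 2 KO peaks lie on the WT peak, Bmpr2 1342 and 1062 bp, and Tgfbr2 1299 and 1200 bp. Smad6, an inhibitory SMAD, had 1397 bp in WT and 645 bp in KO, again with 2 KO peaks on the WT peak. Vegfb, Pgf and Bmp4 had none at the start. Over their windows the 28 genes had 250 WT and 166 KO peaks, and 73 and 71 of 500 bp or more.

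The genes of DNA methylation and of histone acetylation were acetylated at the start in both lists at 13 of 14 and 23 of 24, beside 47.0% of all genes. None was acetylated in 1 list only. All 13 and all 23 marked genes were thus in both lists, beside 87.3% over all marked genes. Dnmt1, the maintenance methyltransferase, had 668 bp in WT and 819 bp in KO, and Dnmt3b, the other de novo enzyme, 681 and 185 bp in peaks that did not overlap. Tet2, an enzyme that oxidises methylcytosine, had 1146 and 1036 bp. Dnmt3l had no peak at its start. Ep300 had 792 bp in WT and 1853 bp in KO, where the KO peak spans 2 WT peaks, Crebbp 722 and 617 bp, and Kat2b 1274 and 560 bp, while Kat2a had none. All 20 immediate early genes were in both lists, for example Fos with 1167 and 984 bp and Jun with 1320 and 1258 bp. Of 24 housekeeping genes 21 were in both, and Tubb5 had 262 bp in WT only. These 15 lists hold 278 different genes, of which 271 were found and 192 have a listed start. The lists describe these genes, and no list was tested.

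CG content was counted in the 300-base windows of 20084 listed starts of 16456 genes. Starts acetylated in both lists (9377) held a median of 23 CG, those in WT only (967) 14, those in KO only (363) 12 and those in neither (also 9377) 4. At least 10 CG were found in 88.4% of starts in both (87.7 to 89.0), 60.5% of starts in WT only (57.3 to 63.6) and 60.6% of starts in KO only (55.4 to 65.7). The WT-only and KO-only starts did not differ beyond their intervals in this measure, and both lay between the shared and the unmarked starts. With both lists limited to 500 bp or more the shares were 86.1% (84.1 to 88.0) in WT only and 76.5% (72.7 to 79.99) in KO only. In that setting a start in WT only can hold a KO peak under 500 bp, and the reverse. These classes are therefore not the same starts: genes in WT only numbered 1324 there against 1052 with all peaks, and in KO only 568 against 363. Among marked starts with 0 to 4 CG, 35.4% were in WT only and 10.6% in KO only. Among marked starts with 20 or more CG those shares were 5.40% and 1.85%. The KO-only over WT-only ratio was 0.300 at 0 to 4 CG, 0.484 at 5 to 9, 0.420 at 10 to 19 and 0.343 at 20 or more, so it had no steady order with CG content.

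**Figure D5:**
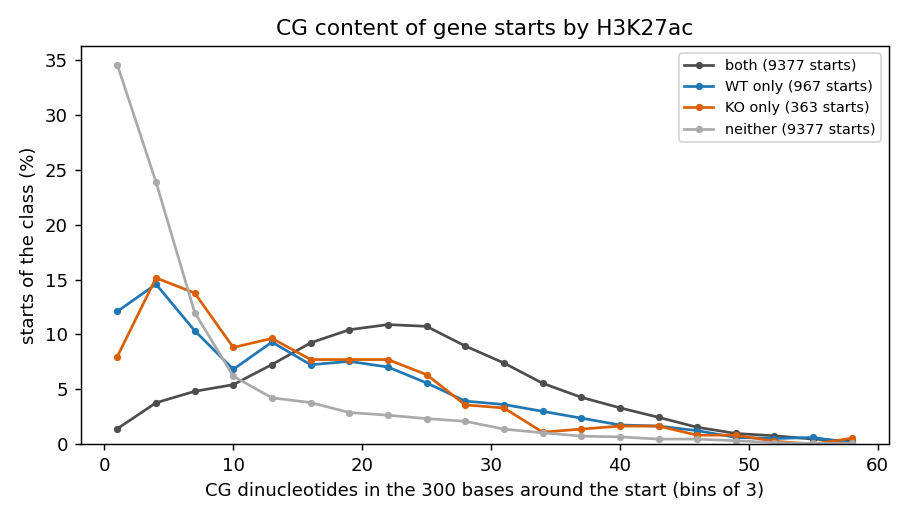
Percent of listed gene starts by the number of CG dinucleotides in the 300 bases around the start, in bins of 3, for starts with H3K27ac within 1000 bp in both lists, WT only, KO only and neither. The medians are 23, 14, 12 and 4; the WT-only and KO-only curves lie close together.

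Width went with CG content too at starts in both lists and in WT only. At starts with 0 to 4 CG the median of the widest peak at shared starts was 637 bp in WT and 629 bp in KO, and at 20 or more CG 848 and 770 bp. The median at starts in WT only was 171 bp at 0 to 4 CG and 292 bp at 20 or more. At starts in KO only it was 231, 218, 207 and 252 bp from the lowest to the highest CG class, without a steady order. Starts in 1 list therefore carried narrow peaks at both ends of the CG range, unlike those of Baz2a, Traf4, Fuz and Mcrip1 printed above, which were chosen as the widest.

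Short motifs were searched on both strands of the same windows. The ETS-type word CCGGAAGT, present in the windows of Fuz and Mcrip1, was found in 9.40% of starts in both lists, 4.03% in WT only, 7.16% in KO only and 5.28% of all. Its core GGAA, which it contains, was in 95.6% of all windows and separates nothing. The AP-1 word TGANTCA was in 4.11% of starts in both, 7.34% in WT only, 6.06% in KO only and 7.06% of all. TATAAA was in 5.92%, 10.5%, 7.99% and 12.7%, and the palindromic NRF1 motif in 2.47%, 1.03%, 0.551% and 1.34%. TATAAA is in the Flt1 window. A match is a run of letters and not a bound site.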

How the data were processed

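The values are the chromosome, start, end and width of each H3K27ac peak, of the unit class other, as deposited by the authors, with no score, count or signal per peak. Per the submitters' processing notes, the tools were MACS2 (2.1.2.1), Bowtie2 (2.2.6), SAMtools, Trim Galore (0.4.4), cutadapt (1.14) and deepTools (3.1.1), on the builds mm10 (mouse) and R64 (yeast). Not given in the sources used here: the peak threshold, how samples were pooled, how the spike-in was used and what each tool did. The effect of the threshold and of depth on narrow peaks was not tested.

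Overlaps used pandas 2.3.3 and numpy 2.4.6, intervals scipy 1.17.1 and figures matplotlib 3.10.9, under Python 3.11.15; the overlap code was tested on simulated lists. The 20661 genes are those GRCm38.p6 lists as protein-coding on chromosomes 1 to 19. A start was any RefSeq start in the promoter table (16456 genes) or, for the 4205 genes without one, either annotated end. Gaps were measured between edges. A peak of 500 bp or more kept the class it had among all peaks, except where both lists were limited to that width.

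Named genes were, for each class, the 6 with most peaks and the 5 densest among those with at least 5 peaks (without Gm and Rik symbols), the genes at the 5 clusters with the longest covered length per list, the 5 widest peaks of 1 list at starts, list members at the start in 1 list only with examples in both, and Dnmt3a. The widest peaks of 1 list away from starts, the genes with the largest excess of KO peaks, and examples with unequal widths were chosen after their values were seen. The members and the gene lists were chosen with earlier results of these data known. Alternatives covered the width limit, equal numbers of peaks, merging, the overlap rule, the windows and the start definition.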

Additional observations from a re-analysis of the deposited data

How the results depend on the processing

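No paired analysis was possible because each genotype has 1 list and no value per sample; for the same reason leaving out a replicate was not run. A share or median was taken as moved outside its main counting interval, which is narrow, and a count or ratio beyond 1.5 times. Of 94 alternative values, 31 stayed, 62 moved, many of them slightly, and 1 changed direction. Cutting the lists to equal numbers gives no number ratio of its own. It also sets the totals equal, so counts by chromosome, cluster, start or gene after the cut cannot show which list holds more. The start definitions were added after seeing the data.

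With both lists limited to 500 bp or more, the KO over WT ratio was 0.916 for peaks and 0.917 for clusters. Shared were 72.9% of WT and 79.7% of KO peaks, and median widths were 812 bp (shared), 615 bp (WT-only) and 606.5 bp (KO-only). Near a start were 48.1%, 28.2% and 19.8% of these classes, and near a shared peak 10.7% of WT-only and 13.6% of KO-only peaks. Genes with H3K27ac at the start in KO only numbered 568, and 2704 genes had more WT peaks. At least 10 CG were in 90.6% of starts in both, 86.1% in WT only and 76.5% in KO only. Here a start in WT only can hold a KO peak under 500 bp, and the reverse.

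With lists cut to the same number of widest peaks, the cluster ratio was 1.00 (from 0.572) and 11 chromosomes had fewer KO peaks. That cluster ratio, just above equal, is the 1 value classed as changed in direction. Shared were 59.9% of WT and 60.8% of KO peaks, with median widths of 600.0, 259 and 212 bp. Near a start were 34.4%, 5.39% and 6.54%, and near a shared peak 18.3% and 24.8%. Genes with H3K27ac at the start in WT only numbered 581 and in KO only 580, a ratio of 0.998. More WT peaks were counted at 3358 genes and more KO peaks at 3717. At least 10 CG were in 70.0% of starts in WT only.

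Merging peaks less than 500 bp apart gave 37.4% of WT and 68.2% of KO peaks shared, medians of 615, 167 and 207 bp, and 15.7% and 20.7% near a shared peak. An overlap of at least 50% of the narrower peak gave 35.8% and 65.3% shared, a median of 561 bp for shared peaks and 32.6%, 4.22% and 6.22% near a start. A gap of up to 500 bp gave 41.2% and 72.6% shared, and 16.6% and 21.4% near a shared peak. Within 1000 bp of a shared peak were 6.997% of WT-only and 10.8% of KO-only peaks. A start window of 2500 bp gave 35.1%, 6.93% and 8.98% near a start, and at least 10 CG in 85.8%, 50.4% and 54.0% of starts in both, WT only and KO only. Listed starts alone gave 26.3%, 2.98% and 4.31% near a start. The causes were not tested. Depth is unknown, and its part in the narrow peaks was not tested.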

Other observations

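MicroRNA hairpins listed by RefSeq gave values that belong in no comparison above. Of 919 hairpins on chromosomes 1 to 19, 101 had H3K27ac within 1000 bp in both lists, 51 in WT only and 7 in KO only. Of those with the mark in either list 32.1% had it in WT only and 4.40% in KO only. At starts of marked protein-coding genes these shares were 9.46% and 3.26%. Over all peaks, 63.0% of the WT list was WT-only and 32.5% of the KO list KO-only. The difference between hairpins and these backgrounds was not tested. Hairpins of 1 cluster share peaks and are not independent. The examples below were chosen after their values were seen, and no miRNA level was measured. The cluster of Mir23a, Mir27a and Mir24-2 on chromosome 8, whose products are found in endothelium, lay 415 to 712 bp from the nearest WT peak and 436 to 733 bp from the nearest KO peak. Mir126a, known as an endothelial microRNA, had 1000 bp between it and the nearest WT peak and 1926 bp to the nearest KO peak. It counted in neither, since the count needed fewer than 1000 bases between edges, so its class rests on this limit. Mir17, the first hairpin of a cluster linked to proliferation and angiogenesis, lay 393 bp from a WT peak and 1278 bp from the nearest KO peak. The mature sequences of the other hairpins are given with the seed, bases 2 to 8, in capitals, and the 4 seeds differ.
miR-23a-3p: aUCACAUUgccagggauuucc
miR-27a-3p: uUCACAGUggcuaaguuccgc
miR-24-3p: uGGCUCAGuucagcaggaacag
miR-17-5p: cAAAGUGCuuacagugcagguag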
